A study of Mus musculus with 4 samples.

Results

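Histone-high S-phase tumour cells were the keratin-positive cells of DLA mouse tumors that carried the most transcripts of 6 histone genes and were not in mitosis. A 10x barcode entered the gate when it held at least 200 genes, at most 10% mitochondrial UMIs, at least 5 UMIs of the keratin genes Krt8 and Krt18 together and fewer than 10 UMIs of the myeloid genes Lyz2, Tyrobp, Fcer1g and Ctss together. In each gated cell the histone score was the UMIs of Hist1h1b, Hist1h2ae, Hist1h2ap, Hist1h1d, Hist1h1e and Hist1h3c per 10000 UMIs, and the mitotic score was the same ratio for Cenpf, Ube2c, Hmmr, Aurka, Cenpa, Cdc20, Plk1, Cenpe, Tpx2 and Ccnb1. Histone-high cells were those in the top 25% of the histone score and outside the top 20% of the mitotic score of their own library. They numbered 751 of 3121 gated cells, 4404 cells that passed the gene and mitochondrial limits and 5332 barcodes in all. There were 201 such cells from Control 1, 127 from Control 2, 281 from Treated 1 and 142 from Treated 2. Values of the libraries follow this order throughout.

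The series held 4 single-cell libraries of tumor tissue from mice bearing DLA cells, a mouse line that the labels call a lymphoma. In the study's methods the cells were injected into the abdominal cavity of Swiss albino mice. Control 1 and Control 2 came from mice without the drug, which the labels name untreated and the supplement describes as vehicle controls, and Treated 1 and Treated 2 came from mice given the compound SP11 by mouth at 30 mg/kg for 17 days. All mice carried the same tumor cells, so there was no tumor-free group. The labels do not say whether a library was 1 animal or a pool, and each p-value below therefore measured the spread between 2 libraries per group, which may be in part technical.

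During S phase a cell doubles its DNA and needs a matching supply of histones, the proteins around which DNA is wound. Most of this supply comes from replication-dependent genes that lie in clusters and encode the linker histone H1 and the core histones H2A, H2B, H3 and H4. Their mRNAs end in a stem-loop in place of a poly(A) tail, rise at the start of S phase, are bound by the stem-loop binding protein SLBP and are degraded when replication ends. Replacement histones such as H3f3b and H2afz are made outside the clusters, from ordinary polyadenylated mRNAs, through the whole cycle. The 3′ assay used here primes on poly(A), so what fraction of the clustered histone mRNA it captured is not known from the counts.

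The score that chose the cells separated them from the next cells by very little. Entry into the top 25% took a histone score of 36.8 and 38.9 per 10000 UMIs in the Controls, against 28.8 for Treated 1 and 18.5 for Treated 2. The lowest score inside and the highest outside were 36.87 and 36.75 in Control 1, and 18.56 and 18.52 in Treated 2. The group was therefore a range of a continuous score, and because the limit was set within each library it held 23.61% to 25.04% of gated cells in every library by construction. The mitotic exclusion removed 9, 5, 17 and 0 cells of the top 25%.

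The cells carried epithelial keratins and few transcripts of leukocyte and T cell surface markers, while red cell transcripts were abundant in the Treated libraries. Levels are given as CPM, the UMIs of a gene summed over the cells and scaled to 1000000 UMIs. Krt18 levels in the histone-high cells were 2779 and 1488 in Control 1 and Control 2 and 2273 and 1885 in Treated 1 and Treated 2. Ptprc, the pan-leukocyte antigen CD45, stood at 0.818, 0, 4.18 and 3.74 CPM, and no UMI of Cd4 or Cd8a was found in any histone-high cell. The keratins were part of the gate, but Krt7 and Krt19, which were not, gave 1210 to 1909 CPM and 379 to 728 CPM. Erythroid genes summed to 176, 40.4, 8430 and 4421 CPM, against 7077, 4044, 5801 and 5106 CPM for the keratin and epithelial list. Ptprc, Cd4 and Cd8a are single genes of longer lists. The pan-leukocyte list of 5 genes, with Ptprc, summed to 11.04, 15.28, 52.97 and 30.88 CPM. Its gene Cd52 gave 0.817, 0.784, 21.26 and 8.42 CPM and was called higher after treatment by edgeR and DESeq2. The T and NK cell list of 16 genes summed to 9.81, 0.784, 10.8 and 6.86 CPM. Whether the cells match the label lymphoma was not tested, and they are called tumour cells only by the gate.

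The histone-high cells were deeply sampled, with 2446505, 2552255, 2869631 and 3206218 UMIs per library. Median UMIs per histone-high cell were 12116, 18744, 9529 and 22085.5, against 9770, 15643.5, 7852 and 18094 in the remaining gated cells of the same libraries. Their mitochondrial share had a median of 1.49% to 1.56% in 3 libraries and 2.13% in Treated 2. Between 60 and 359 barcode sequences occurred in both libraries of a pair. Of these, 39 to 103 passed the gate in both, and 3 to 5 were histone-high in both. Choosing cells anew without any barcode seen in another library kept 57.7%, 52.0%, 69.8% and 65.5% of the histone-high cells. The median correlation of the expression profiles of the gated pairs, 0.75 to 0.83, was within 0.01 of that of neighbouring barcodes. 

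The 67 clustered histone genes listed in the files are short, mostly intronless genes, and 54 of them lie on mouse chromosome 13 between positions 21715763 and 23934851 of the GENCODE M21 annotation (GRCm38/mm10). Another 10 lie on chromosome 3. The stem-loop pattern, GG, 3 free bases, TT, 3 free bases, A, 3 free bases and CC, was looked for on the transcript strand and found within 150 bases after the stop codon in 45 of the 67 gene models, at a median of 31 bases after it. In 25 genes the 16 letters were identical, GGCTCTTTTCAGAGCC, among genes for H1, H2A, H2B and H3. No H4 gene held these letters, as Hist1h4n and Hist1h4d show below. They are shown for scored genes and for genes discussed below, with the stem-loop in capitals, read 5′ to 3′ on the strand of the gene. The first 5 were scored, Hist1h2ap being shown to the end of its model.
Hist1h2ae, chr13:23570661-23570690, minus strand: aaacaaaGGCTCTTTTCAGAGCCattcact
Hist1h2ap, chr13:21833026-21833051, minus strand: aaaaaaaGGCTCTTTTCAGAGCCatc
Hist1h1d, chr13:23555780-23555809, plus strand: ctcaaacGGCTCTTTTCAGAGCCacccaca
Hist1h1e, chr13:23621775-23621804, minus strand: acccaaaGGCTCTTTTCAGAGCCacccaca
Hist1h3c, chr13:23745040-23745069, minus strand: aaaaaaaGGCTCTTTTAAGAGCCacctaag
Hist1h3e, chr13:23561896-23561925, minus strand: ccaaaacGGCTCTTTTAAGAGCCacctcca
Hist1h2ac, chr13:23683470-23683499, minus strand: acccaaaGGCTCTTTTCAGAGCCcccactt
Hist1h3d, chr13:23576237-23576266, plus strand: ccccaaaGGCTCTTTTCAGAGCCacccccg
Hist1h4n, chr13:21831791-21831820, minus strand: aactaaaGGCCCTTTTCAGGGCCatccaat
Hist1h4d, chr13:23581943-23581972, plus strand: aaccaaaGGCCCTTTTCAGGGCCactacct
Hist2h2ac, chr3:96220411-96220440, minus strand: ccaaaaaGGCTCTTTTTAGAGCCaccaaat

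Gene models differed beyond the loop. In 23 genes the annotated transcript ran over 100 bases past the stem-loop, as in Hist1h1e, Hist1h2ac and Hist1h3d. In 13 genes, among them Hist1h1b and Hist1h2an, the model ended at the stop codon, and a stem-loop could not be looked for. The only overlap among these models was between Hist1h1e and Hist1h2be, on the same strand. Coding sequences of the H2A, H2B, H3 and H4 genes are near copies of each other, so the division of reads among single genes of a type is uncertain, more than the sum of the type.

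The start regions of the linker histone genes are shown because 3 of the 6 scored genes encode H1. CCAAT boxes, TATA boxes and the H1 element AAACACA were searched on both strands of the 250 bases before the RefSeq start of 61 matched genes. CCAAT was found in 82.0% of the histone genes against 34.5% of 27025 start regions of all genes, TATAAA in 47.5% against 12.97% and AAACACA in 14.8% against 6.22%. All 6 H1 genes held CCAAT and 5 held AAACACA. In the 120 bases before the start (RefSeq, GRCm38.p6), these letters are in capitals, on either strand. That of Hist1h1d lies further upstream.
Hist1h1b, chr13:21780626-21780745, minus strand: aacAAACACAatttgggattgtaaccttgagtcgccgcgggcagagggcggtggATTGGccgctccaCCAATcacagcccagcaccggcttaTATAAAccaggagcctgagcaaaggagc
Hist1h1d, chr13:23554912-23555031, plus strand: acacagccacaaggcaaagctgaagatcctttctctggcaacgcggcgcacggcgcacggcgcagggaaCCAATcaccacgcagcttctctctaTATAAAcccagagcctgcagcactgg
Hist1h1e, chr13:23622559-23622678, minus strand: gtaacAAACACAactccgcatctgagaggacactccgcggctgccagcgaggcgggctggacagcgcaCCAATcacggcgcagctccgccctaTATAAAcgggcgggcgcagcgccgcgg

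Hist1h1b, which encodes the linker histone H1.5, was the most abundant scored gene. It stood at 2333 and 2218 CPM in the histone-high cells of Control 1 and Control 2 and at 1968 and 1174 CPM in Treated 1 and Treated 2, with the Treated libraries below both Controls. In the remaining gated cells it was at 674, 718, 566 and 295 CPM, and in the mitotic cells at 329, 330, 323 and 134 CPM. Hist1h1e, encoding H1.4, followed with 955, 808, 806 and 513 CPM. Hist1h2ae, a core H2A gene, gave 861, 1063, 582 and 383 CPM, again without overlap between the groups. Hist1h2ap, another H2A gene, gave 276, 590, 269 and 311 CPM, and Control 1 lay below Treated 2. The lower 2 scored genes, Hist1h1d and Hist1h3c, ranged from 186 to 373 and from 70.5 to 182 CPM.

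The contrast between histone-high and remaining cells is fixed by the rule for the scored genes and was not tested for any gene. The scored genes had a median ratio of 3.21 between histone-high and remaining cells. Of the other clustered histone genes, 37 of 61 passed the filter on low counts, and their median ratio was 2.50 against 1.02 over all 9141 genes that passed. In 32 of the 37 the ratio was above 1 in all 4 libraries. Among the most raised was Hist1h2be at a median ratio of 3.89, followed by Hist2h2bb at 3.44 and Hist1h2bj at 3.06, all H2B genes. Replacement histones had a smaller median ratio, 1.15 over 9 genes, with 7 above 1 and 2 below 1 in all 4 libraries. Of all 9141 genes 1720 were above 1 and 1216 below 1 in all 4 libraries. H3f3b, an H3.3 gene, was at 1.40 and H2afz, encoding H2A.Z, at 1.09.

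All clustered histone genes together made up 0.751% and 0.762% of the UMIs of histone-high cells in Control 1 and Control 2, and 0.573% and 0.365% in Treated 1 and Treated 2. The remaining gated cells held 0.254%, 0.283%, 0.196% and 0.107%, and the mitotic cells 0.124%, 0.132%, 0.118% and 0.0553%. Within each library the order was thus histone-high, remaining, mitotic, and in each of the 3 cell states the Treated 2 value was the lowest of the 4 libraries.

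**Figure D1:**
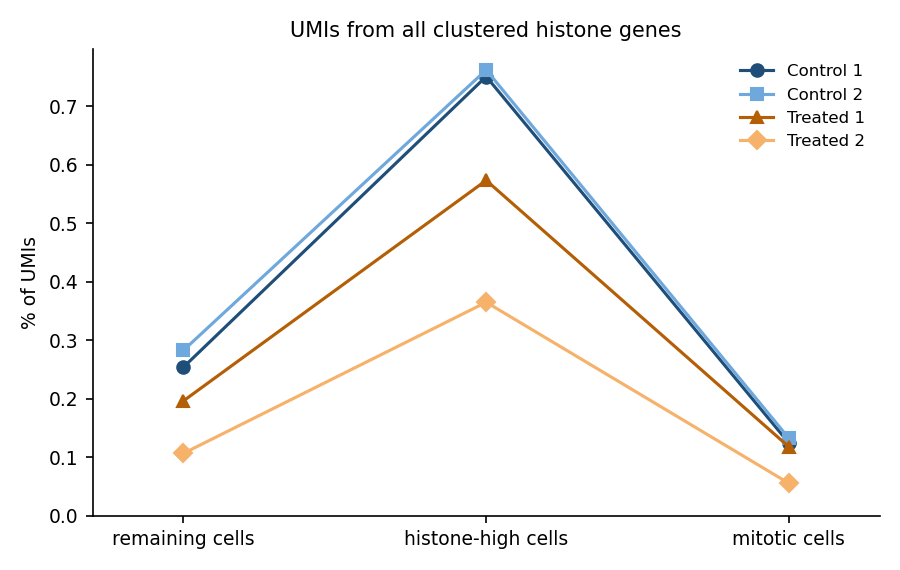
Share of UMIs from all clustered histone genes (%, vertical axis) in remaining, histone-high and mitotic gated cells (horizontal axis), with 1 point and line per library. Histone-high cells stand highest in every library, from 0.365% in Treated 2 to 0.762% in Control 2, and the Treated libraries lie below the Controls in each state.

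Genes of DNA replication were higher in the histone-high cells by a smaller factor than the histones. The fork and deoxynucleotide list, 32 genes, had a median ratio of 1.40, and 30 of the 32 were above 1 in all 4 libraries. Top2a, the topoisomerase that untangles replicated DNA, had a median ratio of 2.33, Rrm2, a subunit of ribonucleotide reductase, 1.81 and Lig1, the ligase that joins Okazaki fragments, 1.64. The G1/S and licensing list had a median ratio of 1.23 over 28 genes, with Mcm3, a helicase subunit, at 1.30. Checkpoint genes of replication were at 1.27 over 16 genes, with Clspn at 1.57. Histone chaperones, which carry new histones to DNA, were at 1.29 over 13 genes, and Slbp was at 1.42. Outside the cycle, heat shock genes had a median ratio of 1.01 over 23 genes.

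Genes of G2 and early mitosis were also higher in these cells. The other G2/M genes, which the rule did not use, had a median ratio of 1.63 over 37 genes. Outside that list, Incenp, a centromere protein, was at 2.16 and Pbk, a mitotic kinase, at 2.14. Both were named for their high ratio, so they do not stand for the list. Some mitotic genes went the other way. Ccnb2, a B-type cyclin, was at 0.66 and Pttg1, the securin gene, at 0.65. The snoRNA host genes Snhg20 and Snhg3 were also among the lowest, at 0.56 and 0.64. Cells of high mitotic score had been taken out of both the histone-high and the remaining cells.

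Across deciles of gated cells by histone score, the fork and deoxynucleotide genes changed little over the lower 5 deciles and were higher above them. Both the G1/S and licensing genes and the other clustered histones were already higher in the fifth decile than in the lowest. The fork and deoxynucleotide list went from 20.1 UMIs per 10000 in the lowest decile to 19.5 in the fifth and 39.3 in the highest decile of Control 1. In Treated 2 it went from 21.3 to 21.7 and 42.2. The G1/S and licensing list went from 9.27 to 12.4 and 18.8 in Control 1 and from 11.6 to 15.1 and 20.7 in Treated 2. The other clustered histones went from 3.02 to 5.30 and 29.2 per 10000 in Control 1 but from 1.49 to 2.55 and 11.2 in Treated 2. The 10 mitotic genes were highest in the lowest decile, at 22.4 to 27.6 per 10000, against 7.87 to 10.5 in the highest. Slbp was at 48.9 to 89.4 CPM in the lowest decile and 113 to 171 CPM in the highest. Ung, a uracil glycosylase gene switched on at the start of S phase, was higher in the fifth decile than in the highest in all 4 libraries, at 37.5 against 14.6 CPM in Control 1 and 58.4 against 21.02 CPM in Treated 2.

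**Figure D2:**
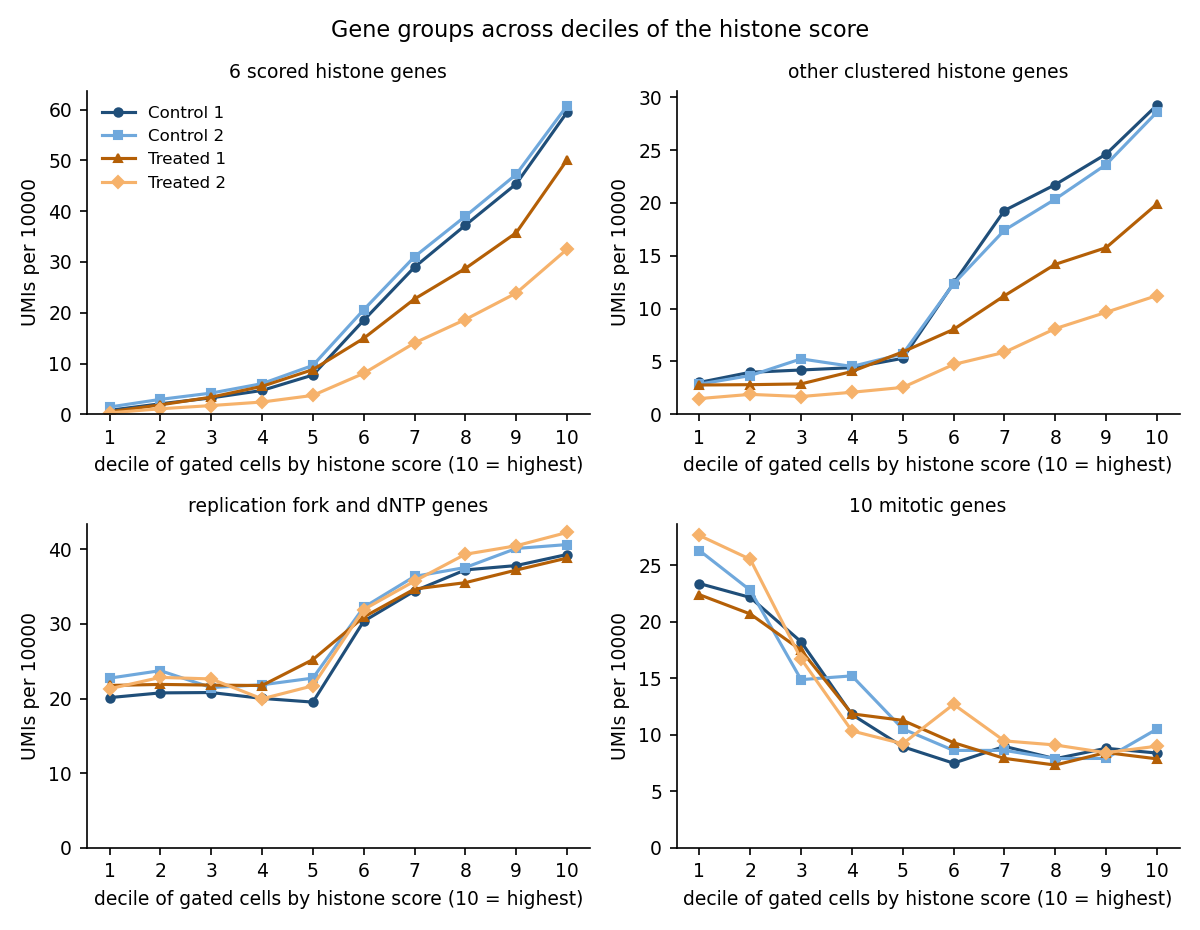
UMIs per 10000 (vertical axes) of 4 gene groups in deciles of the gated cells of each library, ordered by histone score (horizontal axes, 10 is the highest decile). The clustered histones reach 29.2 per 10000 in the highest decile of Control 1 and 11.2 in Treated 2, while the replication fork genes reach 39.3 and 42.2, and the mitotic genes are highest in the lowest deciles.

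Phase calls from the Seurat cell cycle gene lists put the largest part of the histone-high cells in S phase. The share called S was 46.3%, 53.5%, 49.1% and 59.2% over the 4 libraries, against 22.8%, 23.5%, 23.0% and 31.2% of the remaining cells. A further 21.7% to 29.6% were called G2/M. The rule had taken cells of high mitotic score out of both cell states, and 92.4% to 98.2% of those cells were called G2/M. The G2/M shares were therefore in part set by the rule, which removed 9, 5, 17 and 0 cells of the top 25%. The share called G1 was 26.9%, 22.0%, 29.2% and 11.3%. With every cell thinned to 5000 UMIs the share in S was 43.9%, 43.1%, 41.7% and 45.8%. Pcna, the sliding clamp of replication, had a UMI in 46.2%, 57.8%, 51.3% and 57.5% of thinned histone-high cells. In the thinned remaining cells it was seen in 37.1%, 43.9%, 35.1% and 38.2%. At that depth 37.0%, 28.4%, 39.2% and 21.7% were called G1. By these calls S was the most frequent phase in each library, with under 50% of the cells at that depth, so the label S-phase describes a part of the cells.

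The histone score, which chose the cells, is described here without a test. Its median in histone-high cells was 47.3 and 49.3 per 10000 UMIs in Control 1 and Control 2 and 37.6 and 25.1 in Treated 1 and Treated 2. The groups did not overlap, and Treated 2 lay further from the Controls than Treated 1. The means were 48.3 ± 1.46 (SD, n = 2) and 31.4 ± 8.84 (SD, n = 2). The difference of the means was -16.9 per 10000, and 2 libraries against 2 cannot give a two-sided exact permutation p below 0.333.

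Because each library had its own limit, gated cells that were not mitotic were also counted above a single score of 30.8 per 10000, the mean of the 4 limits. In Control 1, 264 of 670 cells were above it, or 39.4% (95% exact binomial interval 35.7% to 43.2%). Control 2 had 181 of 421, 43.0% (38.2% to 47.9%). Treated 1 had 241 of 952, 25.3% (22.6% to 28.2%), and Treated 2 had 31 of 453, 6.84% (4.70% to 9.57%). These intervals cover counting error among cells only, not the spread between libraries. The score is the one that chose the cells, so the shares are a description. The Treated minus Control difference was -25.1 percentage points, and with 2 libraries per group a two-sided exact permutation p cannot be below 0.333. At 5000 UMIs per cell the shares were 38.2%, 41.0%, 27.4% and 8.89%, in the same order. The share of cells above a score cannot tell fewer S-phase cells from less histone RNA per cell.

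**Figure D3:**
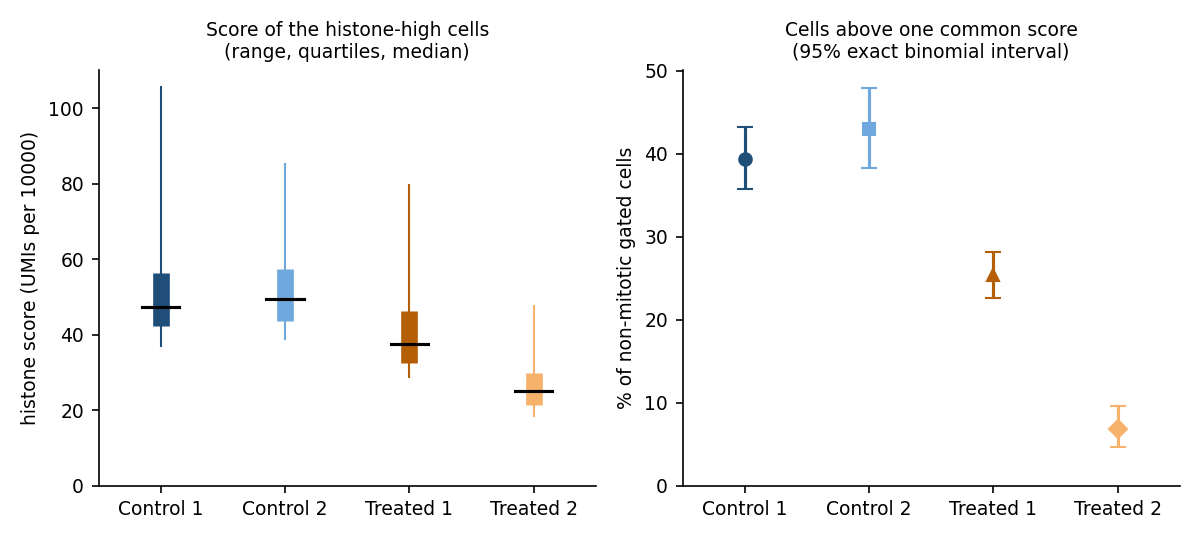
Left, histone score (UMIs per 10000) of the histone-high cells of each library, with the range as a thin line, the quartiles as a bar and the median as a black line. Right, percentage of non-mitotic gated cells above a single score of 30.8 per 10000 with 95% exact binomial intervals. The medians lie between 49.3 in Control 2 and 25.1 in Treated 2 and the shares between 43.0% and 6.84%, with both Treated libraries below both Controls.

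Summed over the histone-high cells of each library, clustered histone genes were the main class of genes lower in the treated tumors. The edgeR quasi-likelihood test at an adjusted p under 0.05 called 57 of 9141 genes, 0.624%, with 31 higher (0.339%) and 26 lower (0.284%). Clustered histone genes made up 17 of the 26 lower genes, 15 of them outside the score that chose the cells. Of the 67 such genes, 63 had a UMI in these cells and 43 passed the filter on low counts. All 43 had a negative log2 fold change, with a median of -0.97 against 0.01 over all genes tested, and none was called higher. The Treated values of 34 of the 43 lay below both Control values, against 10.2% of all genes tested. These counts hold the 6 scored genes, as do those by histone type.

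The 6 scored genes chose the cells, so their differences are a description. Their log2 fold changes were -1.06 (SE 0.19) for Hist1h2ae, -0.89 (SE 0.20) for Hist1h3c, a core H3 gene, -0.66 for Hist1h2ap, -0.60 (SE 0.20) for Hist1h1b, -0.49 for Hist1h1e and -0.45 for Hist1h1d. Of the clustered histones that were not scored, 15 of 37 were called lower and all 37 had a negative value, with a median log2 fold change of -1.001. The largest falls were in genes of low level. Hist1h2an, an H2A gene, gave 27.0 and 56.0 CPM in Control 1 and Control 2 and 13.9 and 10.6 CPM in Treated 1 and Treated 2, and fell by 1.84 (SE 0.29, edgeR adjusted p = 0.00219). Hist1h2bc, an H2B gene, gave 18.4, 17.6, 6.62 and 4.99 CPM and fell by 1.72 (SE 0.30, edgeR adjusted p = 0.00545). Hist1h4n, an H4 gene, gave 12.3, 14.9, 5.23 and 3.74 CPM and fell by 1.68. Hist1h2ac and Hist1h3d both fell by 1.64. Among genes of higher level, Hist2h2ac gave 523, 535, 363 and 203 CPM and fell by 0.97, and Hist1h3e gave 170, 172, 110 and 66.4 CPM and fell by 1.03. Hist1h4d gave 768, 721, 531 and 278 CPM with a log2 fold change of -0.94 (edgeR adjusted p = 0.0554).

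By histone type, the calls fell on core histones. None of the 4 H1 genes tested was called by edgeR or DESeq2, although all 4 had an unadjusted edgeR p under 0.05. Their median log2 fold change was -0.47. Among them Hist1h1b, Hist1h1d and Hist1h1e were scored genes that chose the cells, so the H1 values are largely a description. Hist1h1c alone was not scored, with a log2 fold change of -0.42 (SE 0.17). Of H2A genes 5 of 13 were lower with a median of -0.93, of H2B genes 5 of 11 with -1.15, of H3 genes 4 of 8 with -0.98 and of H4 genes 3 of 7 with -1.001. Whether H1 and core genes differed was not tested. Summed H1 transcripts still went from 3791 and 3367 CPM in Control 1 and Control 2 to 3161 and 1955 CPM in Treated 1 and Treated 2. Genes with a stem-loop and over 100 bases of model beyond it had a median log2 fold change of -1.01 over 16 genes, those with a stem-loop and a shorter end -1.09 over 14 genes, and those without a stem-loop in the model -0.82 over 13 genes.

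The number of histone genes called depended on the libraries, the choice of cells, the depth and the test, while the median log2 fold change of the clustered histones stayed between -0.97 and -0.62 in the fits named here. Without Treated 2, 7 clustered histone genes were called lower and the median over those tested was -0.62. With histone-high cells chosen by the single score of 30.8, only 31 cells of Treated 2 remained, 3 histone genes were called lower among 8 lower genes in all (0.0867% of 9226 tested), the clustered histones had a median of -0.72 and the scored genes, to which that score applies, one of -0.31. Thinning every cell to 5000 UMIs left 3 histone genes called lower, with a median of -0.76. DESeq2 called 2 histone genes lower among 11 lower genes (0.0899%), Hist1h2an and Hist1h3e, with a median of -0.95. The sign was kept by all 6 scored genes under these alternatives.

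Other genes of histone supply showed no called difference in edgeR or DESeq2. At an unadjusted edgeR p under 0.05 they counted 2 of 9 replacement histone genes, 0 of 13 genes of histone mRNA and 1 of 13 chaperones. The 9 replacement histone genes tested had a median log2 fold change of -0.16, and H3f3b stood at 1825 and 2084 CPM in Control 1 and Control 2 and 1744 and 1806 CPM in Treated 1 and Treated 2. The 13 genes of histone mRNA transcription and processing had a median of -0.09. Slbp gave 161, 152, 129 and 168 CPM, with overlapping groups (log2 fold change -0.16, SE 0.15, edgeR adjusted p = 0.870). The 13 histone chaperones had a median of -0.09, and Nasp, which carries H3 and H4, gave 327, 286, 331 and 396 CPM.

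Genes of replication itself gave no call in edgeR or DESeq2, and few had an unadjusted edgeR p under 0.05. None of the 28 G1/S and licensing genes was called (median log2 fold change -0.03), nor any of the 32 fork and deoxynucleotide genes (-0.08) or the 16 checkpoint genes (0.05), where 3, 1 and 0 genes had such an unadjusted p. Summed CPM of the fork and deoxynucleotide list was 3853, 3997, 3771 and 4098, and Treated 2, with the lowest histones, had the highest value. Rrm2 gave 307, 362, 261 and 355 CPM, and Lig1 gave 399, 415, 467 and 438 CPM. In simulated data of the same depth the test recovered 60.2% of genes changed by 1 on the log2 scale, so a change of that size could have been missed in some single genes. No call was made by either tool among the 37 other G2/M genes (median -0.05, 3 genes at an unadjusted edgeR p under 0.05), the 10 scored mitotic genes (-0.10, 1 gene), the 17 G1 regulators (0.07, 0 genes) or the 7 keratin and epithelial genes (-0.06, 0 genes).

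**Figure D4:**
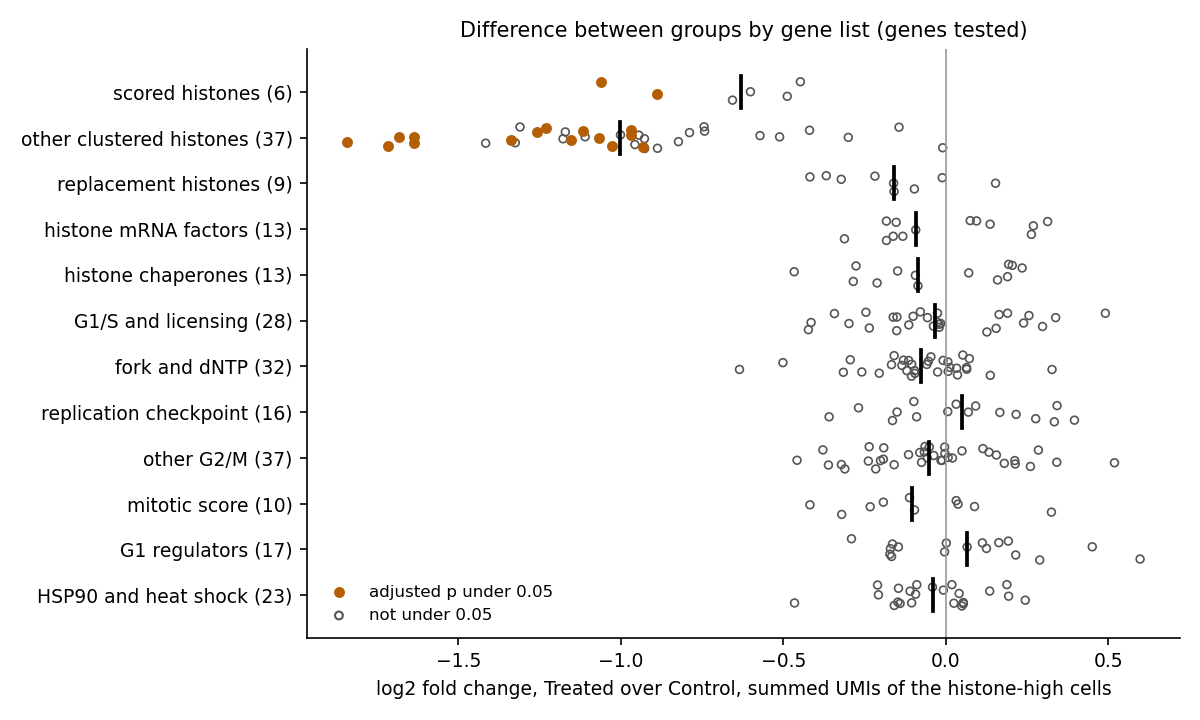
Log2 fold change, Treated over Control (horizontal axis), of each gene tested in the histone-high cells, by gene list (rows, number of genes tested in brackets). Filled points have an edgeR adjusted p under 0.05 and black bars are list medians. Clustered histones lie left of 0, with medians of -0.63 for scored and -1.001 for other genes, while the medians of the other lists are between -0.16 and 0.07.

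HSP90, a chaperone of many signalling proteins, is the target that the study gives for SP11. Hsp90ab1 gave 5418 and 5333 CPM in Control 1 and Control 2 and 6100 and 5575 CPM in Treated 1 and Treated 2 (log2 fold change 0.04, edgeR adjusted p = 0.982). Hsp90aa1 gave 1982, 2374, 2271 and 2801 CPM, with overlapping groups. None of the 23 HSP90 and heat shock genes tested was called by edgeR or DESeq2, and 0 had an unadjusted edgeR p under 0.05. Myc was at 22.5 to 26.6 CPM in all 4 libraries. Bcl2, at 4.90, 5.09, 8.36 and 11.9 CPM, did not pass the test (edgeR adjusted p = 0.511).

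The other 9 lower genes were mostly short. Rps28, a ribosomal protein gene, gave 3385, 4059, 2239 and 2262 CPM over the 4 libraries, a fall by 0.80 on the log2 scale (SE 0.16, edgeR adjusted p = 0.0142). Rps27 fell by 0.70. Tomm7, Slirp, Ndufa1 and Ndufb1-ps, nuclear genes named for mitochondrial proteins, fell by 0.68 to 0.69. Egr1, an immediate-early transcription factor, gave 174, 183, 111 and 110 CPM, a fall by 0.77 (SE 0.14). The remaining lower genes were Rps27rt, a near copy of Rps27, and AY036118, which overlaps ribosomal RNA sequence.

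Annotated transcript length moved with the difference. The median length was 524 bases in the 17 lower histone genes and 861 bases in the 9 other lower genes, against 3018 bases over the 9070 tested genes with a length. Genes outside the histone clusters with transcripts under 600 bases had a median log2 fold change of -0.19 over 127 genes, those of 600 to under 1000 bases -0.11 over 483 genes and those of 2000 bases or more 0.06 over 6526 genes. Histone genes had a median of -0.97 where the model was under 600 bases and -0.99 where it was 600 bases or more. The part of transcript length in the histone result was not tested beyond these values.

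The higher genes were led by transcripts of blood cells. Of 8 erythroid genes 5 passed the filter on low counts. Hba-a2, Hbb-bt and Alas2 passed through the Treated libraries where they were high, so that their edgeR call was largely fixed. All 5 were called by edgeR and 4 by DESeq2, which called 15 of 12241 genes higher in all. Among them was Hbb-bs, a beta globin gene, at 104 and 20.4 CPM in Control 1 and Control 2 and 4609 and 2688 CPM in Treated 1 and Treated 2. Of 16 B cell genes 7 passed the filter, all but Cd74 through the Treated libraries, so that the edgeR call of all 7 was largely fixed, and DESeq2 called 4 of the 15 it fitted. The antigen-presenting gene Cd74 was at 7.36, 5.09, 92.7 and 43.0 CPM. Cd79b, a chain of the B cell receptor, was at 0 UMIs in both Controls and at 31 and 22 UMIs after treatment, which was at least 14.5-fold higher when 3 UMIs over the Control group are taken as the floor. Myeloid genes called higher included S100a9, Il1b and Cxcl2. Tyrobp and Lyz2, which the gate limits, were higher as well and are not counted as evidence. S100a9 gave 1.64, 0.784, 48.4 and 18.7 CPM. It passed the filter through the Treated libraries, so that its edgeR call was largely fixed. Of 3 neutrophil genes tested S100a9 alone was called by edgeR, and S100a8 and Ly6g were not. Of 5 macrophage genes tested only Tyrobp and Lyz2 were called, and Fcer1g, Fn1 and Apoe were not.

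In the remaining gated cells the erythroid, B cell, macrophage and neutrophil lists were also higher in both Treated libraries than in both Controls. Summed erythroid CPM in histone-high cells was 176, 40.4, 8430 and 4421, and 404, 312, 11437 and 5071 in the remaining cells. In histone-high cells the B cell list gave 10.2, 9.40, 223 and 112 CPM, and the macrophage list 22.5, 21.2, 96.5 and 55.5 CPM. The neutrophil list gave 68.7, 70.1, 165 and 112 CPM, and the T and NK cell list 9.81, 0.784, 10.8 and 6.86 CPM. In the remaining cells the B cell list gave 29.8, 17.3, 324 and 213 CPM. The macrophage list gave 20.3, 35.9, 120 and 71.5 CPM there, and the neutrophil list 74.1, 89.1, 194 and 171 CPM. Ighd, Cd4, Cd8a, Gzmb, Mmp8, Ngp and Slc4a1 had no UMI in any histone-high cell. Keratin and epithelial genes summed to 7077, 4044, 5801 and 5106 CPM, with overlapping groups. Scrublet marked 10, 15, 0 and 1 histone-high cells of the libraries as doublets. The part of RNA from other cells in the higher genes was not tested.

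**Figure D5:**
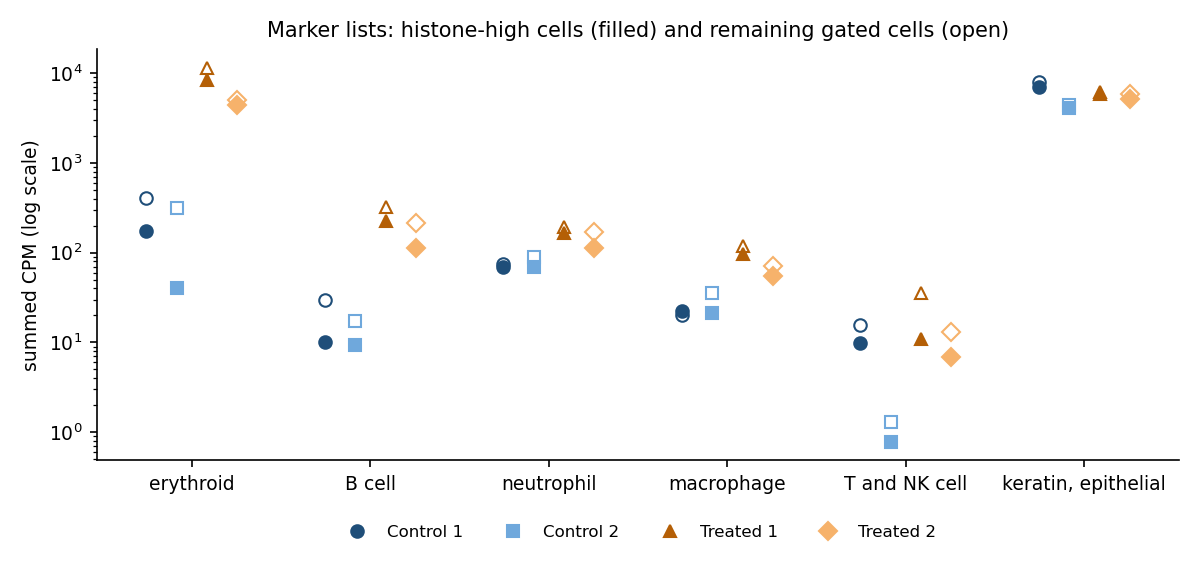
Summed CPM of 6 marker lists (log vertical axis) in the histone-high cells (filled) and in the remaining gated cells (open) of each library. Erythroid sums in histone-high cells are 40.4 and 176 CPM for the Controls against 4421 and 8430 CPM after treatment, and the open symbols show the same order, while keratin sums overlap.

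A few higher genes were not blood cell markers. Camk1d, a calcium-dependent kinase, gave 107 and 103 CPM in Control 1 and Control 2 and 260 and 189 CPM in Treated 1 and Treated 2, a log2 fold change of 1.01 (SE 0.17, edgeR adjusted p = 0.00441). Plec, which encodes the cytoskeletal linker plectin, gave 186, 172, 298 and 341 CPM (log2 fold change 0.75, SE 0.14). Myh9, a non-muscle myosin heavy chain, gave 39.6, 42.3, 69.0 and 91.1 CPM, and Slc7a5, an amino acid transporter, gave 47.8, 45.8, 77.4 and 84.8 CPM. Lars2, a mitochondrial leucyl-tRNA synthetase, and Ftl1-ps1, a copy of the ferritin gene Ftl1, were also called higher.

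The histone decrease was also measured in the gated cells that were not histone-high. In the remaining cells 14 of 36 other clustered histones tested were lower (0.439% of 10472 genes tested were called lower), with a median log2 fold change of -1.03, and Hist1h3e, an H3 gene, fell by 1.25 (SE 0.25, edgeR adjusted p = 0.0121). In the mitotic cells 3 of 20 were lower (0.356% of 9272 genes), with a median of -0.74. A direct test of whether the Treated against Control difference differed between histone-high and remaining cells called 6 of 10243 genes, 0.0586%. It called 0 of 48 clustered histone genes. Of these, 10 had an unadjusted edgeR p under 0.05, 9 with the smaller fall in the histone-high cells. The 6 scored genes, which chose the cells, gave 5 of the 10 and 5 of the 9, and these are a description. Over all genes 514 had an unadjusted edgeR p under 0.05, and no other tool was run. For Hist1h1b, a scored gene, the difference between the cell states was 0.22 on the log2 scale (SE 0.05). The test called 90% of simulated differences of 2 but 27% of those of 1 on the log2 scale. The simulation drew the cell states separately, without the deviations that states of the same library share, so its rates do not carry over. In the real counts the test called Hspb1 at a difference of 0.34, but not with thinned cells. How small a difference could have been missed in the histone genes is therefore not known.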

How the data were processed

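The values deposited by the authors for the 4 libraries were unnormalized UMI counts, a gene by cell matrix each, made from 10x Genomics Chromium 3′ reads. Per the file headers Cell Ranger 7.1.0 was used. The submitters' processing notes name mm10 and the study's text the human build hg38, while the gene symbols in the files are of the mouse. The annotation release is not given in the sources used here. The members and gene lists were chosen with earlier results of these data known.

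Histone-high cells were taken by the stated limits, and their counts were summed per library. Groups, 2 libraries each, were compared with edgeR 4.0.16 (filterByExpr, TMM, quasi-likelihood, Benjamini-Hochberg adjustment over all genes tested). The difference between cell states used the same test with the library as a block. DESeq2 1.42.0 was the other count test. Single values were compared with a two-sided exact permutation test. Phases came from Seurat 5.3.0 with 43 S-phase and 54 G2/M genes, and doublets from Scrublet in scanpy 1.11.5, which were kept. Scrublet's automatic threshold marked 88.9% of Control 1 cells with the first random seed, so the second seed was used (5.13%, 8.13%, 0.928% and 1.47% of cells). On simulated counts with 200 genes changed, the group test called 160, of which 6 were false, among 8943 genes, and called none where none was changed.

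Named genes were the scored genes, up to 4 of the highest and 4 of the most changed called genes of each list, up to 8 called genes in each direction with a mean of at least 20 CPM, up to 10 in each direction by the ratio between cell states at 50 CPM or more, up to 6 genes differing between states, and Hsp90aa1, Hsp90ab1, Myc and Bcl2. Genes called outside these limits, and histone genes, were named after their values were seen. Alternatives changed the histone, mitochondrial and gene limits, the depth, the doublets, the normalization, the filter, the test and the libraries. The labels do not say that a replicate number marks a shared animal or batch. Stem-loops were read from GENCODE M21 transcripts and start regions from RefSeq (GRCm38.p6).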

Additional observations from a re-analysis of the deposited data

Results flagged for a closer look

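In all, 6 genes differed between the histone-high and the remaining gated cells in their Treated against Control difference, by the edgeR test of the difference itself. For the globin genes the difference was larger in the histone-high cells, by 2.20 (Hbb-bt), 2.06 (Hba-a2), 1.58 (Hbb-bs) and 1.17 (Hba-a1) on the log2 scale. In Control 1 and Control 2, Hbb-bs stood at 104 and 20.4 CPM in the histone-high cells and 250 and 190 CPM in the remaining cells. In Treated 1 and Treated 2 it was at 4609 and 2688 CPM against 6431 and 2967 CPM. Hspb1, a small heat shock gene, had a difference of 0.34 (SE 0.07, edgeR adjusted p = 0.0472), and Gm42418, which overlaps ribosomal RNA sequence, one of -0.23 (SE 0.04, edgeR adjusted p = 0.00403). Thinning every cell to 5000 UMIs, which also left out shallower cells and chose the histone-high cells anew, changed the globin differences. Then 3 of them turned to the other sign and were called lower, at -1.98 (Hbb-bt), -0.95 (Hbb-bs) and -1.02 (Hba-a1), and Hba-a2 was at 0.04. Hspb1, at 0.26 (edgeR adjusted p = 0.948), and Gm42418, at -0.25 (edgeR adjusted p = 0.0801), kept their sign but were no longer called. In that fit edgeR called 0 of 8202 genes higher, of which 235 had an unadjusted p under 0.05. The direction of the globin difference between the cell states is therefore not settled by these counts.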

How the results depend on the processing

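All alternatives kept the sign of the difference in share and in median histone score. Leaving out 1 library at a time gave differences of -34.4 to -15.9 percentage points and -23.2 to -10.7 per 10000 UMIs, and a single histone score for all libraries gave -7.14. Genes called higher, 31, became 11 with thinned cells, 15 with DESeq2 and 62 without the filter, and ranged from 21 to 41 with 1 library left out. Genes called lower, 26, became 42 with the top 35%, 4 with thinned cells, 8 with a single score, 11 with DESeq2 and 53 without the filter, and ranged from 17 (without Treated 2) to 40 (without Control 1). Clustered histones called lower, 17, became 3 with thinned cells, 3 with a single score, 2 with DESeq2 and 27 without the filter, and ranged from 7 (without Treated 2) to 24 (without Treated 1). The replicate number as a block gave 28 higher, 21 lower and 11 lower histone genes. Deviations of same-numbered libraries from their group means correlated at 0.08. With 2 libraries per group these deviations mirror each other, so this value cannot tell whether the numbers mark a pairing. Genes differing between cell states, 5 higher and 1 lower, became 0 (235 at an unadjusted edgeR p under 0.05) and 3 with thinned cells, and ranged from 4 to 8 and 1 to 2 with 1 library left out. The single score, the shared barcodes left out and thinning in the test of cell states were chosen after seeing the data. With 2 libraries per group, one left out leaves a lone sample assumed to vary like the others. Of 1925 recomputed values of single genes, 1811 kept direction and side of the threshold, 86 were no longer called and 28 became called.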
